A study of Mus musculus with 24 samples.

Results

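The genes described here are the 9 mouse genes that encode the hypoxia-inducible transcription factors (HIFs) and the proteins that control them: Hif1a, Epas1, Hif3a, Arnt, Hif1an, Egln1, Egln2, Egln3 and Vhl. They were taken by name from 30342 gene names on the array, and the set was chosen by a measured value, the higher Hif1a signal on the D361E arrays than on the WT arrays of this same study. That difference is therefore given below as a description, with no test, as is every Hif1a value that compares D361E or WT arrays. Of the 9 genes, 8 had a probe that the scanner software marked well above background on every array of 1 or more groups, and these were among the 15059 genes tested. Egln3 was not.

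RNA came from DA1-3B Bcr-ABL+ cells, murine leukaemia cells expressing the BCR-ABL fusion kinase, with C3H eOuJ as its labelled strain. All 24 samples were transfected with plasmid. VOID cells received the empty plasmid, WT cells the p65/RelA subunit of NF-kB, D361E cells a p65/RelA form that the design text calls non-cleavable, p1-361 cells its N-terminal fragment, p363-549 cells its C-terminal fragment, and the last group both fragments together. Each group had 4 samples, each on 1 one-colour array (in the protocol text the C-terminal fragment begins 1 residue earlier than in the sample labels). No label says that the 4 samples of a group were separate cultures, and p-values here therefore reflect only the spread among these samples, which may be technical. As bulk samples, they cannot tell fewer cells of a type from less RNA per cell.

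HIFs are dimers of an oxygen-controlled alpha subunit (from Hif1a, Epas1 or Hif3a) and the constant beta subunit encoded by Arnt. When oxygen is present, the prolyl hydroxylases encoded by Egln1, Egln2 and Egln3 mark the alpha subunit, the Vhl protein recognises the mark and directs the subunit to the proteasome, and the asparaginyl hydroxylase encoded by Hif1an blocks its contact with co-activators. This control acts on the protein, while the arrays measured mRNA. NF-kB is known to bind the Hif1a promoter and raise its transcription.

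Each array had 49.4% to 55.5% of its spots well above background. All levels below are relative to the array's 75th percentile of signal (635.8 to 1214). Of 10 blood cell genes, 7 were well above background on all 24 arrays, among them Ptprc, the interleukin-3 receptor gene Il3ra and the myeloid factor gene Spi1, while Kit and Cebpa were on none. The epithelial genes (4 of 4) and the B cell genes Cd79a and Ms4a1 were on none, with the B cell gene Pax5 on 2. The fibroblast genes Col1a1, Pdgfra and Dcn were on none and Col1a2 on 6. The T cell genes Cd3e, Cd3d and Cd4 and the endothelial genes Pecam1 and Kdr were on all 24, with Cd8a and Cdh5 on none. Over the 200 genes that best separated the groups in the remaining sets, 21 arrays correlated best with their own group (r of 0.52 to 0.95). The other 3, all labelled replicate 4, were closer to another group: the p1-361 array to p363-549 (r of 0.78 against 0.14 for its own group), the p363-549 array to both fragments (0.97 against -0.55) and the array of both fragments to p1-361 (0.71 against -0.09). Hif1a was not kept out of the choice of these 200 genes. Without these 3 arrays (15306 genes tested) more genes were called in every comparison, from 671 to 1487 in both fragments minus VOID, from 108 to 417 in p1-361 minus VOID, from 159 to 871 in both fragments minus WT and from 32 to 1645 in additivity. Calls among the HIF genes, their partners and their targets without these arrays are given below, beside the share of all genes called in the same fit.

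Hif1a was measured by a pair of probes, 13304 bases apart on chromosome 12 (build mm9, plus strand, as the array files give them). Probe 1 lay at chr12:75047269-75047329 and was designed on NM_010431. Probe 2 lay at chr12:75033965-75034024, was designed on the clone AK017853, and was above background on fewer arrays. Which exon or untranslated part each covers was not analysed here. The first 30 of the 60 bases of each are shown because the pair reads separate stretches of the locus.
Hif1a probe 1: ttttttggcctatggaattgttaagcctgg
Hif1a probe 2: cctaatctgttactacttgtgtgtaattgt

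The 250 bases before the RefSeq start of Hif1a (chr12:73907617-73907866, plus strand, build GRCm38.p6) are shown because Hif1a was the gene whose signal chose the set. Whether p65 acts on this promoter was not tested. Capitals mark the hypoxia response core, ACGTG or GCGTG on either strand.
Hif1a promoter: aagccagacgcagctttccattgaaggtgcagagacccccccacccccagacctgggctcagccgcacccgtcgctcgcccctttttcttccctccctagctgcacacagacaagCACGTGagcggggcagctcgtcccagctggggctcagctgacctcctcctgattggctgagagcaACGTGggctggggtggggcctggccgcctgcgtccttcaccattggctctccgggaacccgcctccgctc
The window held 3 core matches: an overlapping pair on opposite strands, 135 to 130 bases before the start, and a single match 70 to 66 bases before it. The core occurred in 38.6% of 32851 RefSeq windows of the same length. The NF-kB consensus, searched on both strands, had 0 matches in this window and in all 9 windows of the 8 matched genes; 7.25% of all windows held it. Core matches numbered 2 for Hif3a, 1 for Arnt, 2 for Egln1, 4 and 1 in the 2 windows of Egln2, 1 for Egln3, and 0 for Hif1an and Vhl. A match is a run of letters, not a measured binding site, and a missing match says only that these letters were not in the window.

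Hif1a, the alpha subunit present in most cell types, was higher on all 4 D361E arrays than on any other array, on both probes. With probe 1, the D361E arrays stood at 1.00, 0.79, 0.88 and 0.85 (log2 signal relative to the array's 75th percentile, replicates 1 to 4). The WT arrays stood at -0.19, -0.48, -0.10 and -0.27, and the VOID arrays at -0.28, -0.11, -0.20 and -0.22. Hif1a in cells given full-length WT thus lay within or near the range of the empty plasmid, and the D361E arrays were clear of both. The p1-361 arrays stood at -0.46, -0.52, -0.38 and -0.28, and the p363-549 arrays at -0.62, -0.35, -0.32 and -0.02. Replicate 4 of p363-549, the highest of its group, resembled both fragments over the genes that best separated the groups, and replicate 4 of p1-361 resembled p363-549. The arrays with both fragments stood at 0.30, 0.38, 0.27 and -0.22, so 3 of them lay between D361E and every other group. Replicate 4, which resembled p1-361 over the genes that best separated the groups, lay with VOID. Hif1a was not kept out of those genes.

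**Figure D1:**
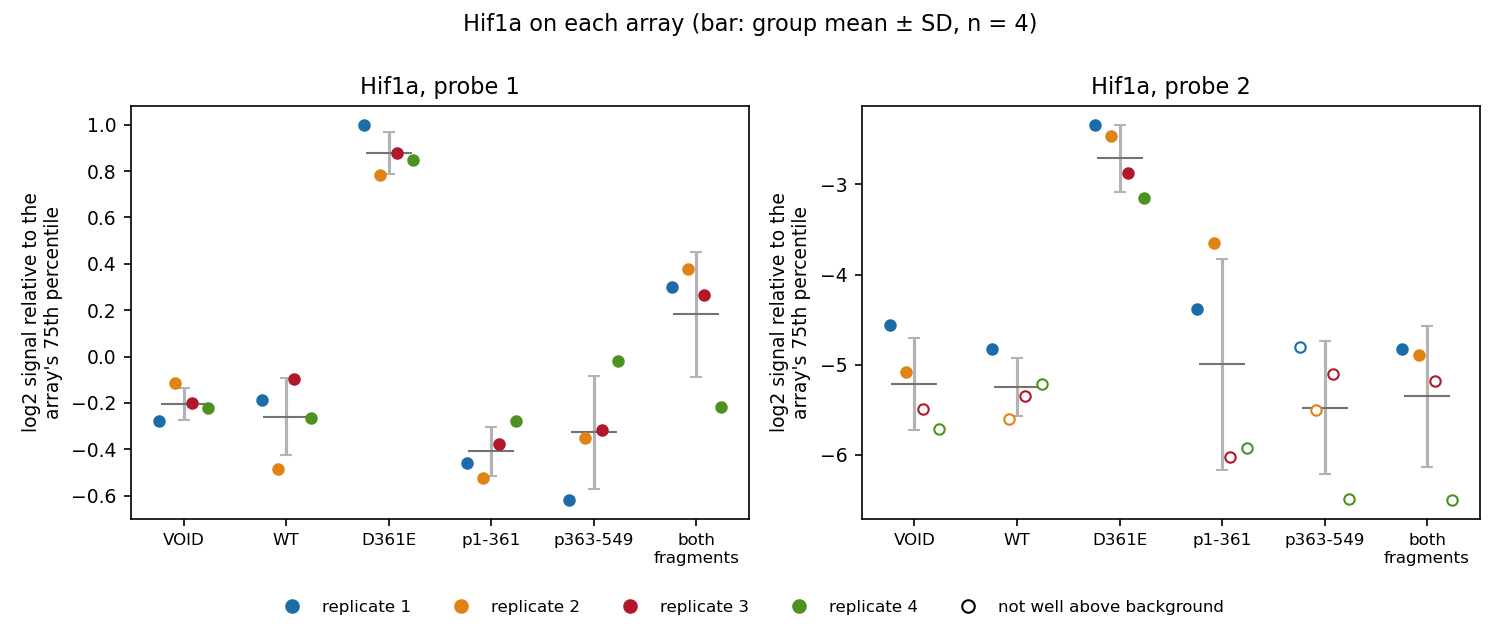
Hif1a signal on each array (log2 relative to the array's 75th percentile, vertical axis) in the 6 transfections, for probe 1 and probe 2, with bars for the group mean ± SD (n = 4) and open points for arrays on which the probe was not well above background. The 4 D361E arrays sit above all 20 others with both probes, and on probe 1 the arrays with both fragments, except replicate 4, come next.

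In order of their means on probe 1, the groups were D361E (0.88 ± 0.09 SD, n = 4), both fragments (0.18 ± 0.27), VOID (-0.20 ± 0.07), WT (-0.26 ± 0.17), p363-549 (-0.33 ± 0.24) and p1-361 (-0.41 ± 0.11). From VOID downward, neighbouring groups were separated by less than the larger of their SDs. D361E exceeded WT by 1.14 ± 0.14 (log2, standard error of the linear model), a 2.20-fold difference, VOID by 1.08 ± 0.14, p1-361 by 1.29 ± 0.14, p363-549 by 1.20 ± 0.14 and both fragments by 0.70 ± 0.14. WT differed from VOID by -0.06 ± 0.14. For the contrast of D361E with WT, which chose the set, 0.0797% of all genes tested were called, and 3.61% had arrays that did not overlap between the groups; Hif1a was the 1 of 8 measured HIF genes without overlap. Against VOID, 1 of 8 did not overlap, again Hif1a, beside 4.77% of all genes.

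The difference between D361E and WT had the same direction in each set of 6 consecutive sample numbers, a set that holds 1 array of each transfection: 1.18, 1.27, 0.98 and 1.12 on probe 1. On the slides that held both groups it was 1.05 and 1.04. Of the variance of Hif1a over the 24 arrays, 89.5% lay between the transfections and 0.39% between the sets, against medians of 23.6% and 35.9% over all genes tested. These shares use the arrays that chose the gene and are a description.

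Probe 2 gave -2.35, -2.47, -2.88 and -3.15 on the D361E arrays, and between -6.50 and -3.66 on the other 20. It was well above background on all 4 D361E arrays, on 2 of 4 VOID, 1 of 4 WT, 2 of 4 p1-361, 0 of 4 p363-549 and 2 of 4 arrays with both fragments, so it passed the filter through D361E alone. Where an array of the other group was below the lowest level that counted as well above background on it, that level was used in its place, which makes a difference a lower bound. D361E was at least 4.71-fold higher than WT on this probe, and at least 4.01-fold higher than VOID. In set 1, the set whose WT array was above background, the difference was 2.48 on the log2 scale. Both fragments and VOID were not compared on probe 2, since 2 of 4 arrays in either group were below background.

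Comparisons without D361E or WT arrays could be tested for Hif1a. With both fragments it was 0.39 ± 0.14 higher than VOID, with adjusted p = 0.127 over all genes (limma, Benjamini-Hochberg), so it was not called; 4.46% of all genes were. Within the sets the difference was 0.58, 0.49, 0.47 and 0.0049. Without the 3 arrays that resembled another group it was 0.52, adjusted p = 0.00581 (limma), in a fit that called 9.72% of all genes. Without replicate 4 of both fragments alone it was 0.52, adjusted p = 0.0163 (limma), in a fit that called 7.25%. The arrays left out were picked without keeping Hif1a apart, so these p-values may depend on that choice. The adjusted p ran from 0.00581 to 0.815 over 36 alternatives. The summed signal of the blood cell genes was lower with both fragments (59.3 to 94.9 times the 75th percentile per array) than in VOID (132 to 174), and its part in this difference was not tested. The separate fragments gave -0.21 ± 0.14 for p1-361 minus VOID (adjusted p = 0.861, limma) and -0.12 ± 0.14 for p363-549 minus VOID (adjusted p = 1.00, limma).

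The additivity comparison asks whether both fragments together differ from VOID by more than the sum of the separate fragments; all 3 terms share the VOID arrays. For Hif1a it was 0.72 ± 0.20 (adjusted p = 0.177, limma), not called, in a comparison that called 0.212% of all genes. Without the 3 arrays together it was 0.99, adjusted p = 0.00114 (limma), in a fit that called 1645 of 15306 genes. It was 0.82 (adjusted p = 0.0289) without replicate 4 of p363-549, where 2.66% of all genes were called, and 0.85 (adjusted p = 0.0200) without replicate 4 of both fragments, where 1.30% were. With the sets as a block the value stayed 0.72 at adjusted p = 0.0425, in a fit that called 5.51% of all genes. The adjusted p ran from 0.00114 to 0.690 over 36 alternatives. None of these calls was made with all 24 arrays in the model without a block.

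None of the other 7 measured genes was called in any of the 9 comparisons tested for them, which share the VOID or WT arrays. Between WT and VOID, 0 of 7 were called beside 0.485% of all genes, and in D361E minus VOID 0 of 7 beside 0.657%. In p1-361 minus VOID it was 0 of 7 beside 0.717%, in p363-549 minus VOID 0 of 7 beside 0.584%, and in both fragments minus VOID 0 of 7 beside 4.46%. Against WT, p1-361 gave 0 of 7 beside 0.126%, p363-549 0 of 7 beside 0.146%, and both fragments 0 of 7 beside 1.06%. A count of 0 among 7 genes is near these background shares. Of the 63 raw p-values, 4 were under 0.05 (2 for Epas1 and 2 for Hif1an), all in comparisons with p363-549, both fragments or additivity. The comparisons with both fragments and additivity share arrays. The share of all genes with a raw p under 0.05 was not counted, so nothing is read from these 4. Without the 3 arrays none of the 7 was called either, and 7 of the 63 differences changed sign, all of them with a raw p above that level. With both fragments against VOID, 10.1% of all genes had arrays that did not overlap, and 0 of 8 HIF genes did.

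**Figure D2:**
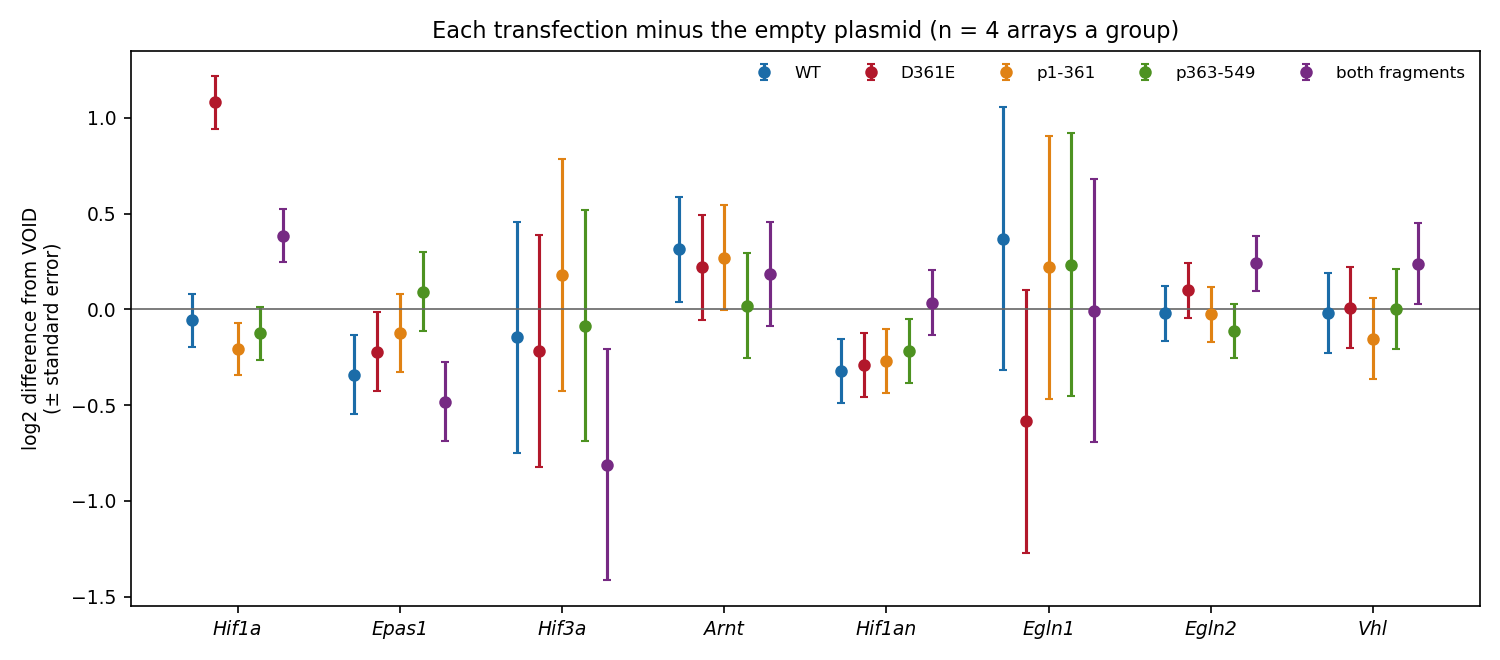
Log2 difference of each transfection from the empty plasmid (vertical axis, ± standard error, n = 4 arrays a group) for the 8 measured HIF genes. D361E stands at 1.08 for Hif1a, and Hif3a and Egln1 have standard errors of 0.60 and 0.69, the widest of the 8.

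Epas1 encodes HIF-2 alpha, the second oxygen-controlled alpha subunit. Of its 3 probes, 1 was well above background on all 24 arrays and the other 2 on none, although all 3 were designed on NM_010137. The bright probe lay at chr17:87230678-87230737 and a silent one started 91 bases before it, at chr17:87230587-87230646 (build mm9, plus strand). The third lay at chr17:87232615-87232674. The first 30 of 60 bases of each are shown, since neighbouring probes of 1 transcript disagreed about whether it was detected.
Epas1 probe 1: aaagtgttctgaaattttataagatttccc
Epas1 probe 2: ccaagcagtggcctttatctgacatgctca
Epas1 probe 3: tcctgtccatgtaacaacttcatgaccatt
All Epas1 values below rest on probe 1, and whether it reads the Epas1 transcript was not tested.

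On probe 1 the VOID arrays stood at 1.44, 1.73, 2.07 and 1.83, and the arrays with both fragments at 1.13, 0.82, 1.85 and 1.34. Those with both fragments were lower in 3 of 4 replicates than any VOID array, and replicate 3 lay inside the VOID range. The difference was -0.48 ± 0.21 (adjusted p = 0.211, limma). Epas1 with p363-549 (1.50, 2.19, 2.12 and 1.63) overlapped WT (1.20, 1.38, 1.77 and 1.36) and differed from it by 0.43 ± 0.21 (adjusted p = 0.950, limma). In D361E it stood at 1.79, 1.63, 1.55 and 1.22, which differed from WT by 0.12 ± 0.21. Thus the D361E arrays that were highest for Hif1a were in the middle of the range for Epas1.

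Hif3a encodes an alpha subunit whose shorter forms are known to oppose the other HIFs. Here too 1 of 3 probes (chr7:17616855-17616914, minus strand, mm9) was well above background on all 24 arrays and the other 2 on none. All Hif3a values rest on this bright probe, and whether it reads the Hif3a transcript was not tested. Its level ran from -3.98 to -0.74, and the array of replicate 3 was the highest in each of the 6 groups. The largest difference from VOID was with both fragments, -0.81 ± 0.60 (adjusted p = 0.476, limma), where replicates 1 and 2 stood at -3.73 and -3.98 and replicate 3 at -1.23. D361E differed from WT by -0.07 ± 0.60.

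Arnt, the beta subunit shared by all alpha subunits, was well above background on all 24 arrays with 2 of its 3 probes and on 7 arrays with the third. On probe 2 (chr3:95301081-95301140, plus strand), which stands for the gene, levels ran from -0.35 to 1.20. Its differences from VOID were 0.31 ± 0.27 in WT, 0.22 ± 0.27 in D361E, 0.27 ± 0.27 in p1-361, 0.02 ± 0.27 in p363-549 and 0.19 ± 0.27 with both fragments. None was called (smallest adjusted p over its comparisons 0.739, limma).

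Vhl, the subunit of the ubiquitin ligase that recognises hydroxylated alpha subunits, was read by 1 probe (chr6:113581566-113581625, plus strand) and ran from 0.59 to 1.81. Its largest difference from VOID was 0.24 ± 0.21, with both fragments (adjusted p = 0.555, limma), and in D361E it was 0.01 ± 0.21. As for Hif3a, the replicate 3 array was the highest in every group.

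Hif1an, the asparaginyl hydroxylase gene (probe at chr19:44650157-44650216, plus strand), stood at -1.13, -1.35, -1.04 and -1.48 in VOID and at -1.07, -1.26, -1.46 and -1.07 with both fragments. It stood at -1.67, -1.56, -1.68 and -1.38 in WT and at -1.55, -1.66, -1.53 and -1.43 in D361E. VOID and both fragments thus had the highest means, each with arrays inside the range of the others. WT was 0.32 ± 0.17 below VOID (a difference of -0.32, adjusted p = 0.952, limma). Both fragments exceeded WT by 0.36 ± 0.17 (adjusted p = 0.384, limma), and the additivity value was 0.52 ± 0.24 (adjusted p = 0.333, limma). None was called.

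The prolyl hydroxylase genes differed in how far they varied. Egln2 had the narrowest range: on the probe that stands for it (chr7:27943678-27943737, minus strand) it ran from 2.85 to 3.72, with differences from VOID of -0.02 ± 0.14 in WT, 0.10 ± 0.14 in D361E and 0.24 ± 0.14 with both fragments (adjusted p = 0.375, limma). Its other probe, also well above background on all 24 arrays, gave 0.20 ± 0.17 for the last comparison. Egln3 was not well above background on any of the 24 arrays with either of its probes, so no level is given.

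Egln1, the main oxygen sensor among the prolyl hydroxylases and itself known as a HIF target, varied most by sample number. VOID arrays stood at -2.32, -0.47, 0.81 and -0.89, WT arrays at -1.13, -0.11, 0.64 and -0.80, and D361E arrays at -2.02, -1.20, 0.12 and -2.10. In all 4 sets the D361E array was below the WT array, while the arrays of the groups overlapped; the difference was -0.95 ± 0.69, given without a test. D361E minus VOID was -0.58 ± 0.69 (adjusted p = 1.00, limma).

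**Figure D3:**
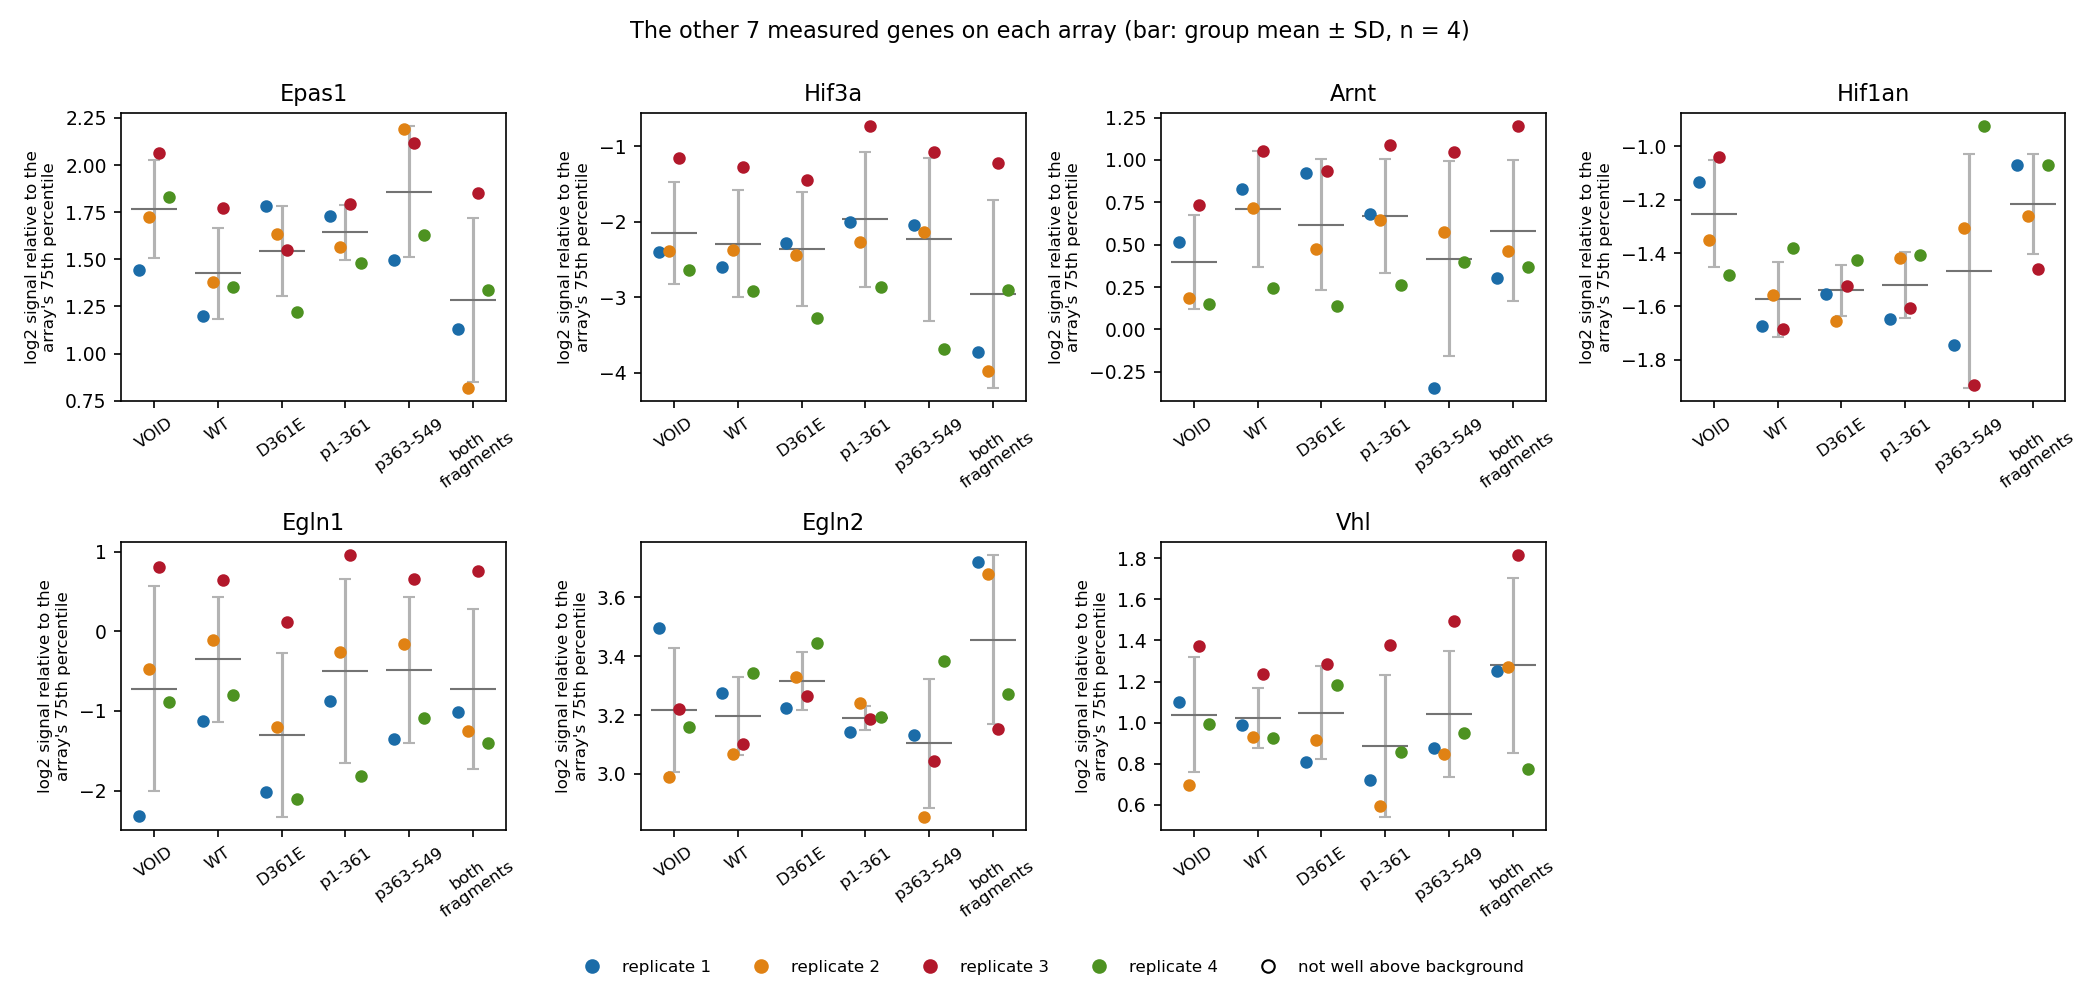
Signal of Epas1, Hif3a, Arnt, Hif1an, Egln1, Egln2 and Vhl on each array (log2 relative to the array's 75th percentile, vertical axis; 1 probe a gene) by transfection, coloured by replicate, with bars for the group mean ± SD (n = 4). Replicate 3 is the highest point in every group for Hif3a, Arnt, Egln1 and Vhl, and no group is separated from the rest in any panel.

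The share of variance between sets exceeded the share between transfections for Hif3a, Arnt, Egln1 and Vhl. Over all genes tested the medians had the same order, 35.9% between sets and 23.6% between transfections. The order alone is therefore not particular to these genes. The sets are the runs of 6 consecutive sample numbers; the labels do not call them batches, and set 3 holds the arrays named replicate 3. Set 3 arrays stood at 0.12 to 0.96 for Egln1, where the other 3 sets ran from -2.32 to -0.11. For Hif3a they stood at -1.44 to -0.74 against -3.98 to -2.01 elsewhere, and for Arnt probe 1 (chr3:95299434-95299493) at -0.52 to 0.33 against -2.00 to -1.08. The share of variance between sets was 92.6% for Arnt probe 1, 77.9% for Egln1, 69.3% for Hif3a, 59.9% for Vhl and 55.7% for Arnt probe 2, where the median over all genes was 35.9%. Of the 15030 tested genes with a value on all 24 arrays, 687 (4.57%) had a share at least as large as Egln1. With the sets as a fixed block, none of these genes was called in any comparison. Of 15059 genes, that fit called 223 in WT minus VOID and 2427 in both fragments minus VOID. With so few HIF genes beside these counts, nothing is read from the absence of calls.

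The genes that HIFs are known to switch on moved with the sets in the same way. They were 18 genes of sugar uptake and glycolysis (all tested) and 26 of other roles (19 tested; Mxi1, P4ha2, Adm, Edn1 and Stc2 were well above background on no array). The median of the 37 tested targets, each taken relative to its own mean over 24 arrays, was 0.32 to 0.80 on the 6 arrays of set 3, -0.56 to 0.06 in set 1, -0.46 to 0.17 in set 2 and -0.90 to -0.13 in set 4. All 6 transfections were highest in set 3, by the targets and by Egln1 alike, and Hif1a was not (set means of -0.04, -0.05, 0.03 and -0.03). The same median over all genes lay between -0.07 and 0.06 on every array. The share of variance between sets had a median of 55.5% over the 37, 44.8% over the 18 of sugar metabolism and 74.6% over the 19 of other roles, beside 35.9% over all genes.

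**Figure D4:**
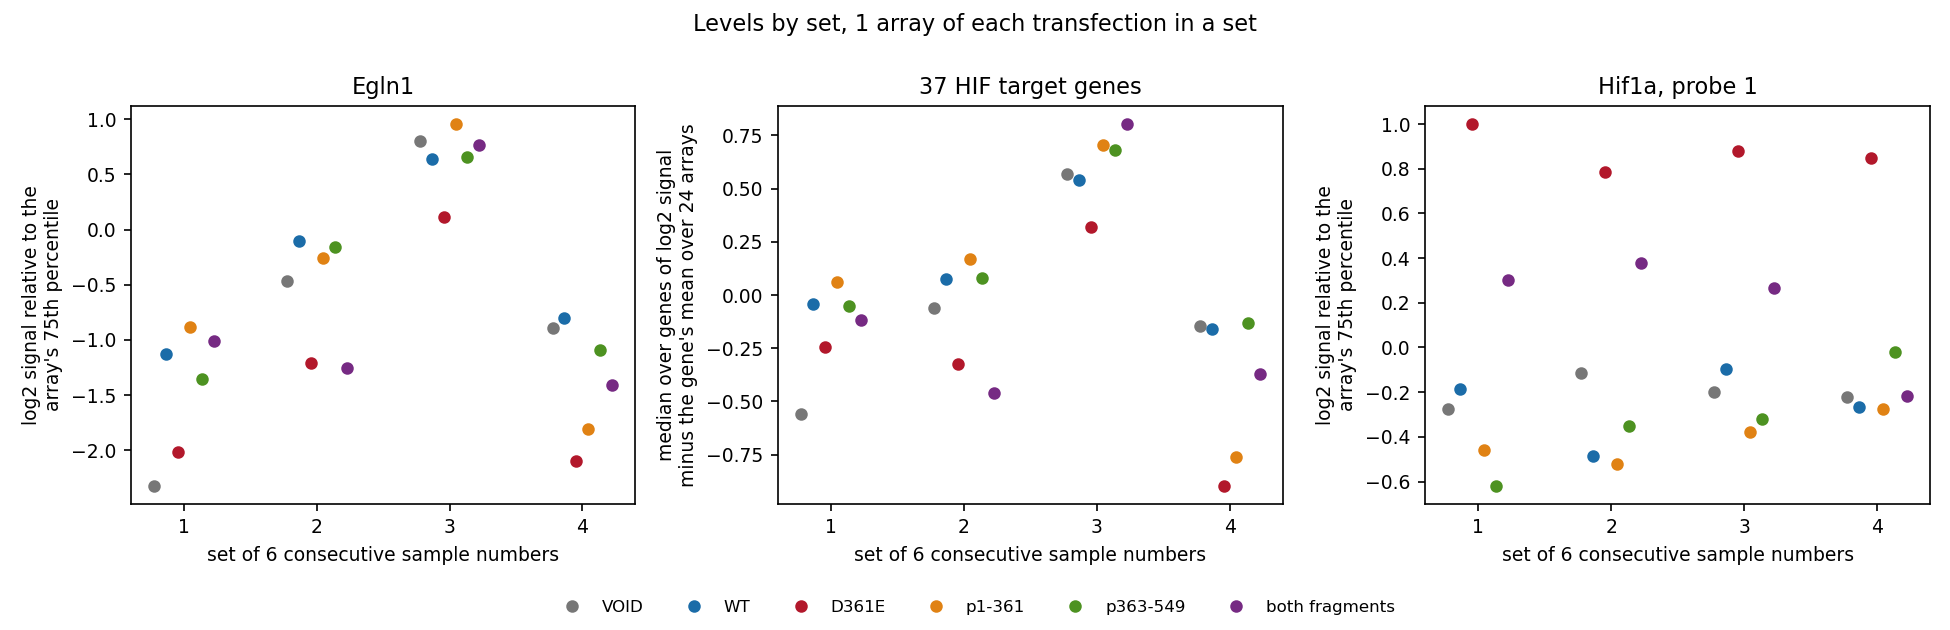
Egln1 (left), the median of 37 HIF target genes (middle, log2 relative to each gene's mean) and Hif1a probe 1 (right) on each array, by set of 6 consecutive sample numbers (horizontal axis) and coloured by transfection. Egln1 and the targets are highest in set 3 for all 6 transfections, whereas Hif1a is highest in D361E in all 4 sets.

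On the D361E arrays, where Hif1a mRNA was highest, most HIF targets stood lower than on the WT arrays. Among the sugar metabolism genes 13 of 18 had a difference below 0, with a median of -0.45, and among those of other roles 18 of 19, with a median of -0.48; the median of all genes was 0.03. Against VOID, 14 of 18 and 15 of 19 were below 0, with medians of -0.27 and -0.30 beside -0.02 for all genes. Against VOID none was called, beside 0.657% of all genes. Cited2 was called lower than in VOID without the 3 arrays that resembled another group (1.59% of all genes called) and with the sets as a block (1.79% called). These comparisons share the D361E arrays, and the lists were chosen with earlier results of these data known.

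The size of these medians moved when single arrays were left out. Leaving out an array removes its set from that group alone, and the model had no term for the sets. The shifts therefore also hold differences between sets. Without replicate 4 of D361E the medians against WT were -0.18 and -0.27, and without replicate 3 of WT -0.14 and -0.22. Against VOID they were -0.03 and -0.05 without replicate 3 of VOID, -0.09 and -0.17 without replicate 4 of D361E, and -0.49 and -0.50 without replicate 3 of D361E; without replicate 1 of VOID the sugar metabolism median was -0.48. Within set 1 the D361E array was above the VOID array by a median of 0.21 and 0.25, while in sets 2, 3 and 4 the medians were -0.39, -0.32 and -0.69 for sugar metabolism. Against WT, the medians within sets 1 to 4 were -0.03, -0.40, -0.32 and -0.64 for sugar metabolism and -0.23, -0.52, -0.65 and -0.72 for the other roles.

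The following genes were singled out after their values were seen. Slc2a1, the main glucose transporter, differed by -1.10 ± 0.82 between D361E and WT, and Pdk1, which holds pyruvate back from mitochondria, by -0.76 ± 0.43. The D361E and WT arrays did not overlap for 5 of the 37 targets: Eno1, Ddit4 and Cited2 were lower in D361E on all 4 arrays, and Slc16a3 and Cxcr4 higher. Over all genes tested, 3.61% did not overlap, and since this contrast chose the set, nothing is read from the count. Eno1, a glycolytic enzyme, stood at 5.82 to 6.47 in D361E and 6.56 to 6.80 in WT; Ddit4, an inhibitor of mTOR signalling, at 4.90 to 5.27 and 5.55 to 5.79. Cited2, a HIF target whose protein competes with HIF for co-activators, stood at 3.77 to 4.21 in D361E and 4.35 to 4.67 in WT. Slc16a3, which exports lactate, stood at -1.63 to -1.52 in D361E and -2.44 to -2.00 in WT. Vegfa, the angiogenic growth factor, differed by -0.46 ± 0.38.

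**Figure D5:**
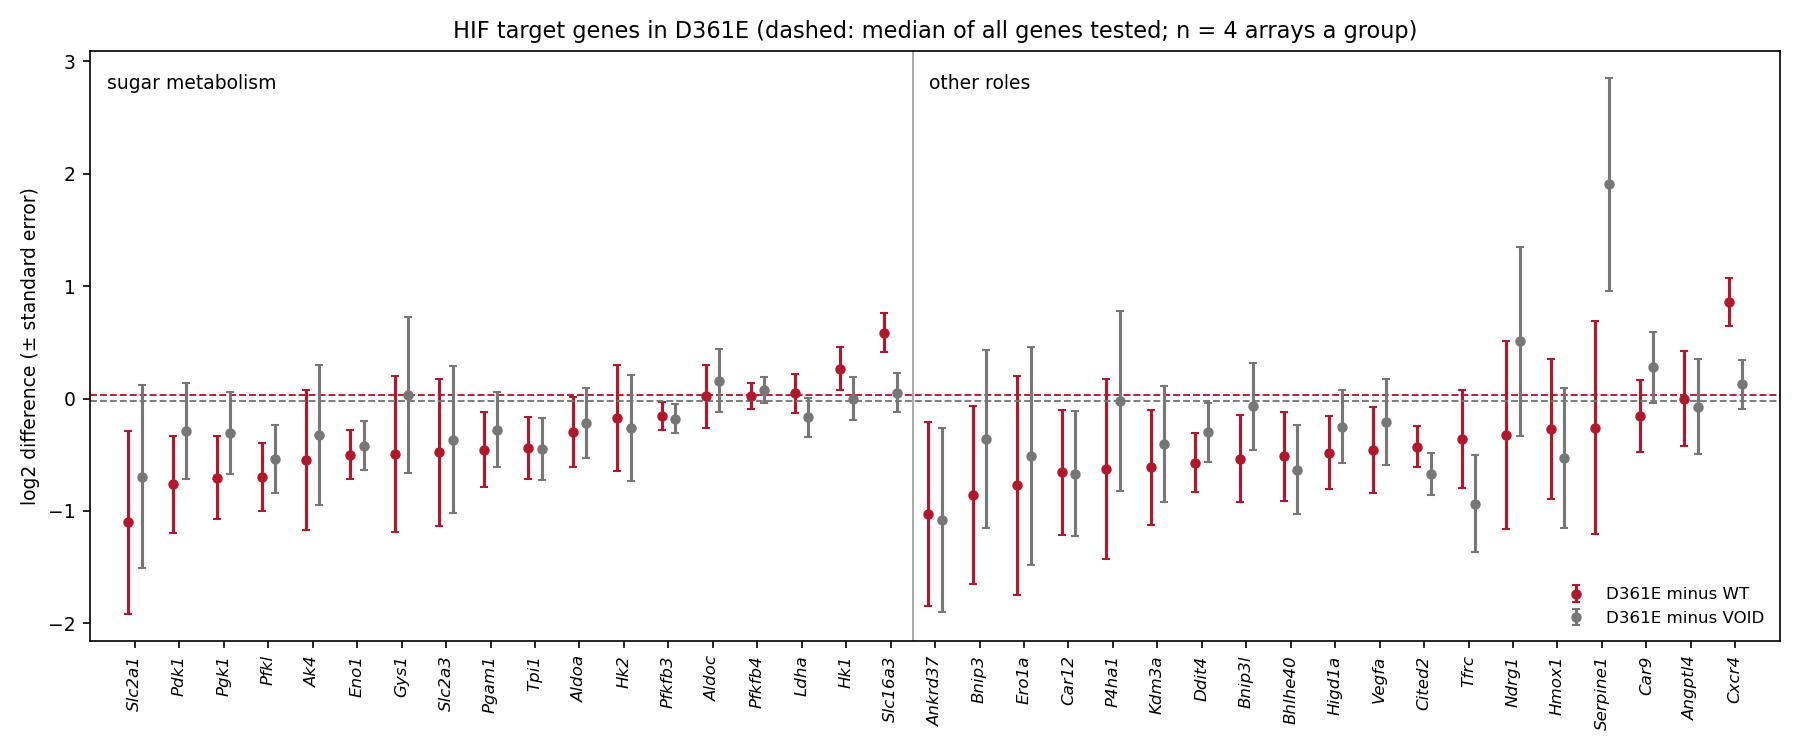
Log2 difference (vertical axis, ± standard error, n = 4 arrays a group) of 37 HIF target genes in D361E minus WT and D361E minus VOID, with dashed lines at the median of all genes tested. Most points lie below the dashed lines, with Cxcr4 (0.86) and Slc16a3 (0.58) as the highest for D361E minus WT, and most error bars reach across 0 or close to it. The errors come from the model without sets and so include the spread between sets.

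Of all 53 tested partners and targets, 1 was called in any of the 9 tested comparisons, with both fragments against VOID, where 4.46% of all genes were called; a count of 1 is no more than that share. It was Cxcr4, the chemokine receptor of blood cells, with a difference of -1.09 ± 0.22 (adjusted p = 0.00419, limma). The VOID arrays stood at -1.33, -2.12, -1.88 and -2.10 and those with both fragments at -3.04, -3.42, -3.12 and -2.23, so the groups did not overlap. The call was lost with normexp background correction and when only the arrays compared were fitted. On the D361E arrays Cxcr4 stood at -1.75, -1.88, -1.78 and -1.51, inside the VOID range, and on the WT arrays at -2.94, -2.79, -2.46 and -2.18.

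Cell type markers were lower in the same comparison. All 7 tested blood cell genes had a difference below 0 with both fragments against VOID (median -0.63, beside -0.0073 for all genes), and 2 were called, the cytokine receptor genes Csf2rb (-1.13 ± 0.21) and Csf2rb2 (-1.28 ± 0.22). Of the T cell genes 3 of 3 tested were below 0 and Cd3d was called (-1.05 ± 0.24, adjusted p = 0.0120, limma), with Cd8a on no array; their summed signal was 2.48 to 5.27 times the 75th percentile with both fragments and 4.80 to 7.32 in VOID. The part of these markers in the Cxcr4 difference was not tested.

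Without the 3 arrays, Slc16a3 and Cxcr4 were called lower in p1-361 minus VOID (2.72% of all genes called), Slc16a3 lower in p363-549 minus VOID (0.915%), Pfkfb3, an enzyme that promotes glycolysis, and Cxcr4 lower in both fragments minus VOID (9.72%), and Pfkfb3 lower in both fragments minus WT (5.69%). In additivity 1 of the 37 targets was called higher (Slc16a3) and 1 lower (Aldoc), beside 1645 of 15306 genes. With the sets as a block, 1 to 3 of the 37 were called in 7 of the 9 comparisons, 3 of them in both fragments minus VOID, beside 16.1% of all genes. Of 15059 genes, that fit called 223 in WT minus VOID, 269 in D361E minus VOID and 452 in p1-361 minus VOID. It called 272 in p363-549 minus VOID and 1111 in both fragments minus WT. In p1-361 minus WT and p363-549 minus WT it called at most 116. Nothing is read from these counts of targets.

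The 16 partners and turnover genes, which include the Vhl ligase subunits Elob, Eloc, Cul2 and Rbx1 and the co-activators Ep300 and Crebbp, were all tested. None was called. In both fragments minus VOID, 5 were called with the sets as a block, 2 higher and 3 lower, beside 16.1% of all genes, and 2 (Rbx1 and Cul2, both higher) without the 3 arrays, beside 9.72%. In additivity, Elob was called higher with the block, beside 5.51%. Their median was 0.01 in D361E minus WT, with values from -0.27 (P4htm) to 0.31 (Crebbp), -0.09 in D361E minus VOID and -0.02 in both fragments minus VOID.

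The 5 genes whose level over the 24 arrays was most like that of Hif1a, by Pearson r among 15029 genes, were Marc1 (0.77), Slc4a5 (0.74), Ift122 (0.74), Atg7 (0.74) and Flywch2 (0.71). The arrays share groups and sets, so these r values are a description. Without the D361E arrays, r fell to 0.30 for Marc1, 0.31 for Slc4a5, 0.49 for Atg7 and 0.29 for Flywch2, and stayed at 0.72 for Ift122. Among the HIF genes themselves, Egln2 came nearest (r of 0.42, rank 339), then Vhl (0.25, rank 1423), while Egln1 was at -0.26.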

How the data were processed

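Gene expression was measured on 24 one-colour (Cy3) Agilent arrays, 4 to each of 6 groups, on 6 slides. Scans were read by the authors with Agilent Feature Extraction, version 10.7.3.1 per the submitters' processing notes. The deposited values are intensity, background-subtracted and on a linear scale, with raw spot and background intensity used for 1 alternative. The deposited files also hold marks of another kind, per spot (control, uneven, well above background). The authors' deposited table of the series held the same intensities (largest difference 0).

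Of 44397 spots, 43020 were not controls (39429 probes, 27508 named through RefSeq accessions and the rest as the files name them). Uneven spots (185 to 312 an array) were left out and 0 were saturated. The measure was log2 intensity minus the array's 75th percentile of it. A probe entered when the scanner software marked it well above background on every array of 1 or more groups (19523 passed); each gene was represented by its brightest probe on average. With R 4.3.3, limma 3.58.1, statmod 1.5.0 and data.table (version 1.17.8), a linear model with group means took in all 24 arrays (residual degrees of freedom 18, prior 3.06). A gene was called at a Benjamini-Hochberg adjusted p under 0.05 over all 15059 genes, 2-sided. Errors are limma standard errors from this model, which has no term for the sets, so they include the spread between sets. The fit was run on simulated data with independent noise and no set or slide effects, so that run does not test the model under such effects. Precision is limited by the number of arrays.

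The genes, lists and marker sets were chosen with earlier results of these data known. Named were all 9 HIF genes, up to 4 called list genes with the largest change in each comparison, and the 5 genes most like Hif1a; others are said to be chosen later. Replicate numbers follow sample order and pair nothing by label. Alternatives were normexp correction (offset 50), quantile normalization, the 75th percentile over detected probes, no filter, a stricter filter, the deposited series values, slides as a block (fixed or random), the sets as a fixed block, a fit to the compared groups alone, the average of a gene's probes, 3 arrays left out together, and each array left out in turn. Promoters and motifs came from RefSeq tables of GRCm38.p6, which matched 8 of 9 genes; probe positions are those of the files (mm9), and the builds were not mixed.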

Additional observations from a re-analysis of the deposited data

Results flagged for a closer look

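A single array stood apart within its group for 2 of the 54 sets of 4 arrays examined (Dixon's test, 95% critical value 0.829), where chance gives about 1 in 20. Hif3a on VOID replicate 3 stood at -1.15, with the other VOID arrays between -2.64 and -2.39. Vhl on p363-549 replicate 3 stood at 1.49, with the others between 0.85 and 0.95. Both arrays belong to set 3, the set that was high for Hif3a, Egln1, Vhl and Arnt in all transfections.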

How the results depend on the processing

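Hif1a was left out of the count of called HIF genes wherever D361E or WT arrays entered, because those arrays chose the set. This count stayed at 0 under all 36 alternatives in 7 of the 9 comparisons. In both fragments minus VOID it was 1 with the 3 arrays left out and 0 to 1 with single arrays left out; in additivity it was 1 with the sets as a block, 1 with the 3 arrays left out and 0 to 1 with single arrays left out. The called gene was Hif1a each time. Hif1a in D361E minus WT was 0.98 with normexp and 1.84 with the mean of its probes. Hif1a in p1-361 minus VOID turned to 0.0052 with the mean of its probes. Calls over all genes ranged over 12 alternatives from 214 (normexp) to 2427 (sets as a block) against 671 in both fragments minus VOID, from 36 to 269 against 99 in D361E minus VOID, from 27 to 223 against 73 in WT minus VOID, from 25 to 452 against 108 in p1-361 minus VOID, from 12 to 272 against 88 in p363-549 minus VOID, from 24 to 1111 against 159 in both fragments minus WT, from 6 to 116 against 19 in p1-361 minus WT, from 7 to 116 against 22 in p363-549 minus WT, from 4 to 81 against 12 in D361E minus WT, and from 3 to 1645 against 32 in additivity; the cause was not tested. No label pairs the samples; the sets, fitted as a block, group them by sample number alone, and the values with that block describe this grouping. Without the filter the median of all genes moved to -0.20 in both fragments minus VOID and to 0.19 in p363-549 minus WT. It moved furthest in additivity, to -0.25. For Egln3, the silent probes of Epas1 and Hif3a, and probe 2 of Hif1a outside D361E, signal over background limits what can be said.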
